A study of Mus musculus with 58 samples.

Results

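The genes described here encode the UDP-glucuronosyltransferases (UGTs) and the cytosolic sulfotransferases (SULTs) of the mouse. The members are the genes whose symbol in the kidney table starts with Ugt1a, Ugt2a, Ugt3a, Ugt2b or Sult1 to Sult6, with the liver rows of the same RefSeq identifiers. This gave 37 genes from 38 transcripts, out of 24121 genes, with 19 UGT and 18 SULT members. The UGT members are 8 Ugt1a, 2 Ugt2a, 7 Ugt2b and 2 Ugt3a genes, and 7 of the SULT members are Sult2a genes. The symbol Ugt2a1 holds a second transcript that the RefSeq table names Ugt2a2. Sult2a8, Sult3a2 and Sult6b2 are outside the rule because the kidney table gives them other symbols.

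RNA was sequenced from liver and kidney of male mice that received trichloroethylene (TCE), tetrachloroethylene (PCE) or only the carrier, as 1 dose into the stomach. Both chemicals are chlorinated solvents, and PCE carries a chlorine atom where TCE carries a hydrogen atom. The 58 libraries form 20 groups, from 2 tissues, 2 chemicals and 5 dose levels, with 3 libraries in a group except 2 in liver at 0.67 mmol/kg PCE and 2 in the kidney vehicle group of PCE. TCE was given at 24, 80, 240 or 800 mg/kg and PCE at 30, 100, 300 or 1000 mg/kg, which the labels equate with 0.22, 0.67, 2 and 6 mmol/kg. Every group, controls included, received the carrier, Alkamuls EL-620 at 5% in saline in a volume of 5 mL/kg. The protocol names B6C3F1/J mice of 5 to 6 weeks, a first-generation hybrid strain, while the strain label reads C57BL/6. The time from dose to sampling is not given in the sources used here.

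UGTs sit in the endoplasmic reticulum membrane and join glucuronic acid from UDP-glucuronic acid to bilirubin, steroids, bile acids, drugs and phenols. SULTs are soluble enzymes that move a sulfonate group from PAPS, the activated form of sulfate, to phenols, catecholamines and steroids. Both reactions make compounds more soluble in water for export into bile or urine, and liver and kidney tubule are among their sites.

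The Ugt1a genes are 1 locus on chromosome 1 (GRCm38.p6, positions 88055411 to 88220002), in which each member has its own promoter and first exon and all are spliced to the same downstream exons. The Ugt2 genes lie together on chromosome 5, where Ugt2b38 covers 87409939 to 87424203 and Sult1d1 covers 87554650 to 87569006. Ugt3a1 (9279822 to 9315038) and Ugt3a2 (9335551 to 9370955) are neighbours on chromosome 15. Sult5a1 is on chromosome 8 from 123142843 to 123158914. Of the 37 members, 31 had a promoter sequence of 300 bases (250 before and 50 after the gene start) in the RefSeq table of that build, 33 windows in all. The TATA box letters TATAAA or their reverse complement TTTATA occurred in windows of 6 of these 31 genes and in 13.6% of all 32851 windows, and GCGTG or CACGC, the core that the AHR receptor binds, in those of 4 genes and in 32.4% of all windows. A match is a description of the letters and not a bound site.

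The 6 promoters printed below belong to the Ugt1a first exon with the largest share of that locus's counts in liver (Ugt1a1) and in kidney (Ugt1a7c), to Ugt1a9, a lower exon of the same locus shown beside them, and to the members with the clearest dose results, Sult1d1, Sult5a1 and Ugt2b38. Capitals mark these letters. Among the 6 windows they occur in that of Sult1d1 (chr5:87568957-87569256, minus strand), with the AHR core 47 bases before the start site and the TATA letters 5 bases after it. The windows of Ugt1a1 (chr1:88211709-88212008, plus strand), Ugt1a9 (chr1:88070529-88070828, plus strand), Ugt1a7c (chr1:88094751-88095050, plus strand), Ugt2b38 (chr5:87424154-87424453, minus strand) and Sult5a1 (chr8:123158231-123158530, minus strand, from a start site at 123158280 inside the annotated gene) hold neither.
Ugt1a1: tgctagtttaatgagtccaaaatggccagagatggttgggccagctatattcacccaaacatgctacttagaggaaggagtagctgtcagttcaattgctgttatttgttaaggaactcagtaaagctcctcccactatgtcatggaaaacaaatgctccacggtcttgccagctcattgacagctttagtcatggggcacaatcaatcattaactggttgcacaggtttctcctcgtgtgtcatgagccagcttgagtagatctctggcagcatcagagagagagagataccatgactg
Ugt1a9: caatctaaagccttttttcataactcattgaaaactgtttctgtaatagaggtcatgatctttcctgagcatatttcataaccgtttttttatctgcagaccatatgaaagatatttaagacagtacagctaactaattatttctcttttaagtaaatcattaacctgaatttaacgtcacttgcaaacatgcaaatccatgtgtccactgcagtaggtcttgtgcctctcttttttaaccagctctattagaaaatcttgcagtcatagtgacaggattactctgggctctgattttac
Ugt1a7c: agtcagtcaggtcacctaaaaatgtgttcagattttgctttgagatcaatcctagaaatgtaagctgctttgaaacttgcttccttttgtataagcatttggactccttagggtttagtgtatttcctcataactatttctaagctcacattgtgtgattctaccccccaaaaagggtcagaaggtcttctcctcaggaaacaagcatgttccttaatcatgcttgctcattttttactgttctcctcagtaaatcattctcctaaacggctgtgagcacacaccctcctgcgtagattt
Sult1d1: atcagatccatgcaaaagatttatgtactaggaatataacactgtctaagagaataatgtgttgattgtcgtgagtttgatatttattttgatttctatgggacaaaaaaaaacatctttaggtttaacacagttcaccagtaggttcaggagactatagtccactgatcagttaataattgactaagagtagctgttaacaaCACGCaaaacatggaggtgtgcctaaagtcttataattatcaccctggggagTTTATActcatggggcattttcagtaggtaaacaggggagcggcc
Sult5a1: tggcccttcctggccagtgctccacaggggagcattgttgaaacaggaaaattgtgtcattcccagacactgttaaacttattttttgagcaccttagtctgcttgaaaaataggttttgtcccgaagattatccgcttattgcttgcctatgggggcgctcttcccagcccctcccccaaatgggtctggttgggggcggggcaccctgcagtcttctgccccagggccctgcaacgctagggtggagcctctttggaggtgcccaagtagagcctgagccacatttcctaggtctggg
Ugt2b38: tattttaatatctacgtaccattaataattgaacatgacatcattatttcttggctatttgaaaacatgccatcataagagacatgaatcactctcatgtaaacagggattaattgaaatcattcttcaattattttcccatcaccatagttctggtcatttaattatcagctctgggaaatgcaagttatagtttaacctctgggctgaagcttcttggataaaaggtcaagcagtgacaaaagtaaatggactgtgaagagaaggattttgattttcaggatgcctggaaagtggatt

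Liver libraries held 30932385 to 125880542 counts, with at least 88048143 in each vehicle and 6 mmol/kg library and at most 65112568 in those of the other doses. Kidney libraries held 23247565 to 32420329. The UGT share of all counts was 0.265 to 0.569% per library in liver against 0.446 to 0.599% in kidney, and the SULT share 0.0293 to 0.0611% against 0.0759 to 0.12%. Albumin (Alb), the main secreted protein of hepatocytes, was at 74361 to 165380 CPM in liver and 4.68 to 57 in kidney, and 7 proximal tubule markers summed to 8759 to 14713 CPM in kidney and at most 6.52 in liver, as the tissue labels have it. Levels are in CPM, counts scaled to the TMM-normalised library size. Reads of several features stand in a separate ambiguous line of the deposited tables, equal to 19.9 to 22.5% per library in liver and 19.7 to 21.4% in kidney. The counting mode is not given, and reads of shared Ugt1a exons are assumed to stand in that line. On this assumption a Ugt1a transcript of 3231 bases has 915 bases of its own to be counted, its first exon. One of Ugt1a6a or Ugt1a6b has 986 of 3302. Levels of different genes are compared below per countable kilobase, which for Ugt1a members rests on this assumption. Near-identical relatives within the Ugt2b, Ugt1a6 and Sult2a groups can share reads, so the split between them is uncertain. No label ties a replicate to an animal of its own, so the p-values reflect only how far these libraries differ, which may be technical.

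Liver and kidney had largely different sets of these enzymes in vehicle libraries (6 liver and 5 kidney libraries). Of the 28 members tested between the tissues, 18 were higher in liver (13 UGT and 5 SULT) and 9 were higher in kidney (5 UGT and 4 SULT), at an adjusted p under 0.05 (edgeR quasi-likelihood test with Benjamini-Hochberg adjustment over 14949 genes). The same test called 72.9% of all genes between these tissues (35.8% higher in liver and 37.1% higher in kidney), so a high share of called members is the background here. Sult6b1 was the member not called (log2 difference, liver minus kidney, of -0.49, adjusted p 0.36). The 9 members not tested were Ugt2a1, Sult1c1, Sult2a1 to Sult2a6 and Sult3a1, which had at most 5 counts in any library. Several Sult2a and Sult3a genes are known as female-predominant in mouse liver, and these animals were male.

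Per countable kilobase, the steroid, bile acid and drug conjugating enzymes Ugt2b5 (mean of 727 CPM per kb), Ugt2b1 (581) and Ugt2b36 (485) led the UGT members in liver. Their ranges over libraries overlapped, at 515 to 913, 413 to 751 and 332 to 642 CPM per kb, so their order is not resolved. Ugt1a1, the bilirubin-conjugating enzyme, followed at 236 and Ugt2b34 at 221. In kidney the leaders were Ugt3a2 and Ugt2b38, both at 716 CPM per kb, then Ugt1a7c at 237 and Ugt3a1 at 216. UGT3A enzymes are known to use other sugars in place of glucuronic acid.

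Ugt2b1 ran from 1061 over a median of 1506 to 1932 CPM in the 6 liver vehicle libraries, a mean of 1496 ± 327 (SD, n = 6). In the 5 kidney vehicle libraries it had 18 counts in all, 10 of them in replicate 2 of the TCE vehicle group. Ugt2b36 (915 ± 190 CPM in liver, SD, n = 6) and Ugt2b35 (298 ± 49.1) had 16 and 9 counts in all in those kidney libraries, 12 and 7 of them in that replicate. That replicate also had 57 CPM of albumin (Alb), against 4.87 to 14.8 in the other 4. The part of liver RNA in these kidney counts was not tested. The log2 differences, liver minus kidney, were 16.07 ± 0.55 (SE) for Ugt2b1, 14.28 ± 0.42 for Ugt2b36 and 14.23 ± 0.40 for Ugt2b35 (adjusted p 3.62e-25, 7.46e-31 and 7.74e-31). They rest on a few kidney counts: without that replicate Ugt2b1 was 16.37 and Ugt2b35 14.99, without replicate 2 of the PCE vehicle group Ugt2b36 was 15.49, and with a replicate block the 3 were 13.93, 13.41 and 12.56. Liver and kidney libraries did not overlap for any of these genes.

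Ugt1a1 had 83.7 to 323 CPM in liver (median 232) and 0.199 to 0.352 in kidney, a log2 difference of 9.51 ± 0.47 (adjusted p 2.96e-22). Ugt1a7c, which conjugates phenols, had the opposite pattern. It was at 186, 222, 189, 239 and 247 CPM in the kidney vehicle libraries and at 0.942 to 3.45 in liver (median 2.26). The log2 difference was -6.60 ± 0.24 (adjusted p 5.91e-27), a 96.9-fold higher level in kidney. Ugt2b38 was at 1301, 1456, 1101, 1474 and 1434 CPM in kidney and at 72.2 to 135 in liver (log2 -3.74 ± 0.20, adjusted p 3.84e-21). Ugt2b37 was also higher in kidney (-4.07 ± 0.28, adjusted p 2.9e-17, with 77.6 ± 11 CPM there). Among the members called outside the naming rule, Ugt3a2 (1668 ± 53.3 CPM in kidney, SD, n = 5) and Ugt3a1 (484 ± 49.6) were 3.69- and 4.31-fold higher in kidney. Ugt2a3, Ugt2b34 and Ugt2b5 were 216-, 40.9- and 9.3-fold higher in liver. The liver and kidney libraries of Ugt1a10 overlapped, and its call (log2 0.65, adjusted p 0.0135) was lost with a replicate block (0.62, adjusted p 0.106) and with the compared libraries alone (0.66, adjusted p 0.0558).

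The SULT members split in the same manner. Sult1a1, the main phenol sulfotransferase, had 250 to 532 CPM in liver vehicle libraries (median 330, mean per countable kb 285) and 6.43 to 10 in kidney, a 47.4-fold difference (log2 5.57 ± 0.26, adjusted p 2.09e-23). Sult1d1, which sulfates dopamine and other catecholamines, was at 540, 528, 399, 374 and 477 CPM in kidney and 69.8 to 114 in liver (log2 -2.44 ± 0.18, adjusted p 2.34e-16). Sult1c2, which sulfates phenolic compounds, was at 143 ± 13.7 CPM in the 5 kidney vehicle libraries (SD, n = 5; 154 and 156 in those of PCE) and 1.93 to 4.28 in liver (log2 -5.60 ± 0.18, adjusted p 1.39e-29), a 48.4-fold difference. No library of one tissue reached the range of the other for these genes.

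Sult5a1, a sulfotransferase with little-known substrates, was 110-fold higher in liver (37 to 73.7 CPM) than in kidney (0.463 ± 0.165 CPM, SD, n = 5). Sult2a7 had 1.87 ± 0.813 CPM in liver (SD, n = 6) and no count in any of the 29 kidney libraries. Against a floor of 3 counts over the 5 kidney vehicle libraries it was at least 120-fold higher in liver, and that floor covers counting error only. Sult2b1, which sulfates cholesterol, was higher in kidney (log2 -3.12 ± 0.61, adjusted p 1.61e-05) at 0.569 ± 0.384 CPM. Among weakly expressed members, Sult4a1 (-1.74, adjusted p 0.00472) lost its call without replicate 2 of the kidney PCE vehicle group (-1.48, adjusted p 0.0549). Sult1e1, the estrogen sulfotransferase (1.94, adjusted p 0.0201), lost it without replicate 1 of the liver TCE vehicle (1.68, adjusted p 0.0521), replicate 3 of the liver PCE vehicle (1.74, adjusted p 0.0515) or replicate 1 of the kidney PCE vehicle (1.53, adjusted p 0.101).

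**Figure D1:**
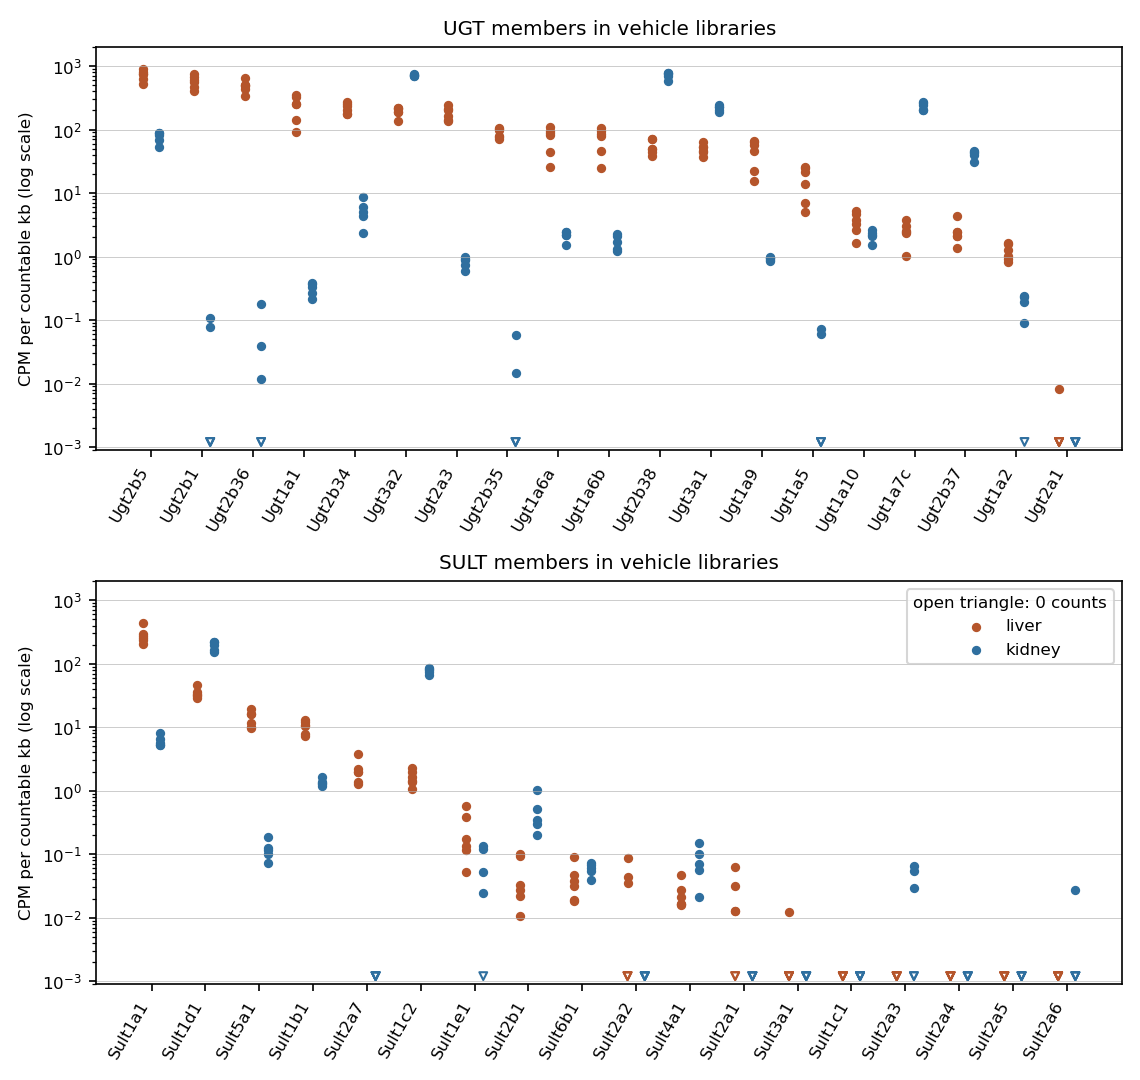
Levels of the 19 UGT (upper panel) and 18 SULT members (lower panel) in vehicle libraries, in CPM per countable kilobase on a log axis, 1 point per library, with open triangles for libraries at 0 counts. Members are ordered by their liver mean, and Ugt3a2, Ugt2b38, Ugt1a7c, Ugt3a1, Sult1d1 and Sult1c2 are among those whose kidney points lie above the liver points.

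The use of Ugt1a first exons differed between the tissues in vehicle and treated libraries. In the 29 liver libraries Ugt1a1 took 47.9 to 55.5% of Ugt1a counts (median 51.5%), out of 4392 to 57919 such counts in a library. Ugt1a6a took 13.7 to 19.6%, Ugt1a6b 14 to 18.7%, Ugt1a9 5.62 to 12.7% and Ugt1a5 1.59 to 6.05%. Ugt1a6 enzymes conjugate small planar phenols. In the 29 kidney libraries Ugt1a7c took 95.1 to 97.3% (median 96.7%), out of 6334 to 11611 counts, and Ugt1a1 0.051 to 0.376%. The ranges of Ugt1a1 and of Ugt1a7c did not overlap between tissues in any library, treated libraries included. The summed Ugt1a level was 158 to 621 CPM in liver vehicle libraries (median 470) and 192 to 256 in kidney (median 230), so these sums overlapped. Summed Ugt2b levels were 3951 to 5918 CPM in liver and 1325 to 1734 in kidney, and summed Ugt3a levels 403 to 648 and 2017 to 2285, without overlap.

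**Figure D2:**
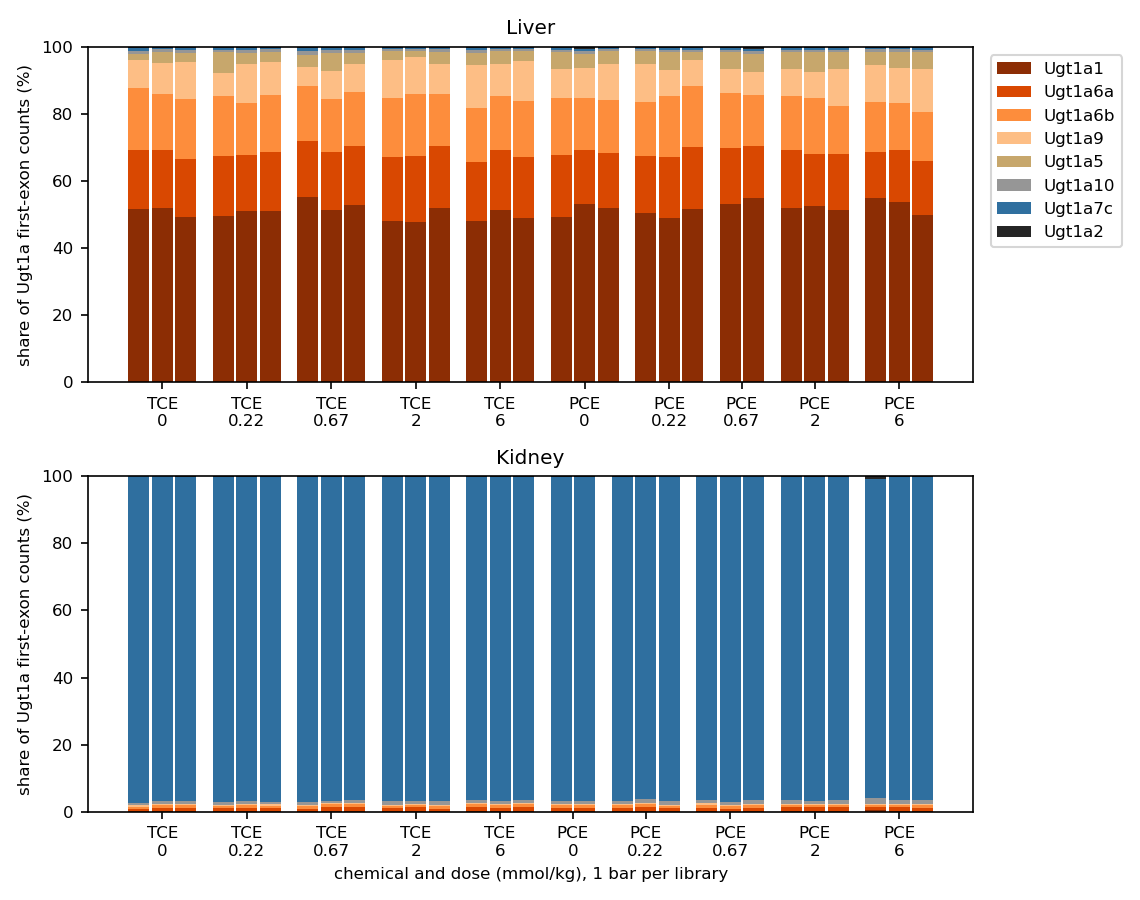
Share of Ugt1a first-exon counts (%) taken by each of the 8 members in each library of liver (top) and kidney (bottom), grouped by chemical and dose in mmol/kg. Ugt1a1 takes 47.9 to 55.5% of every liver bar and Ugt1a7c 95.1 to 97.3% of every kidney bar.

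Few members passed the test after either chemical. In liver, 25 members were tested against vehicle and 12 were not (Ugt2a1, Sult1c1, Sult2a1 to Sult2a6, Sult2b1, Sult3a1, Sult4a1 and Sult6b1). In kidney, 21 were tested and 16 were not (Ugt1a5, Ugt2a1, Ugt2b1, Ugt2b35, Ugt2b36, Sult1c1, Sult1e1, Sult2a1 to Sult2a7, Sult3a1 and Sult6b1). At 6 mmol/kg PCE edgeR called 2 members in liver and 1 in kidney, where it called 5.84% and 3.83% of all genes. At 6 mmol/kg TCE edgeR called none in either tissue, where it called 1.31% and 0.176% of all genes. In each tissue 3 members had an unadjusted p under 0.05, as had 1544 of 13174 genes in liver and 1439 of 14216 in kidney. DESeq2 called Ugt2b5 in liver and Ugt3a1 and Ugt3a2 in kidney after that dose. In bulk tissue, fewer cells of a type and less RNA per cell cannot be told apart.

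**Figure D3:**
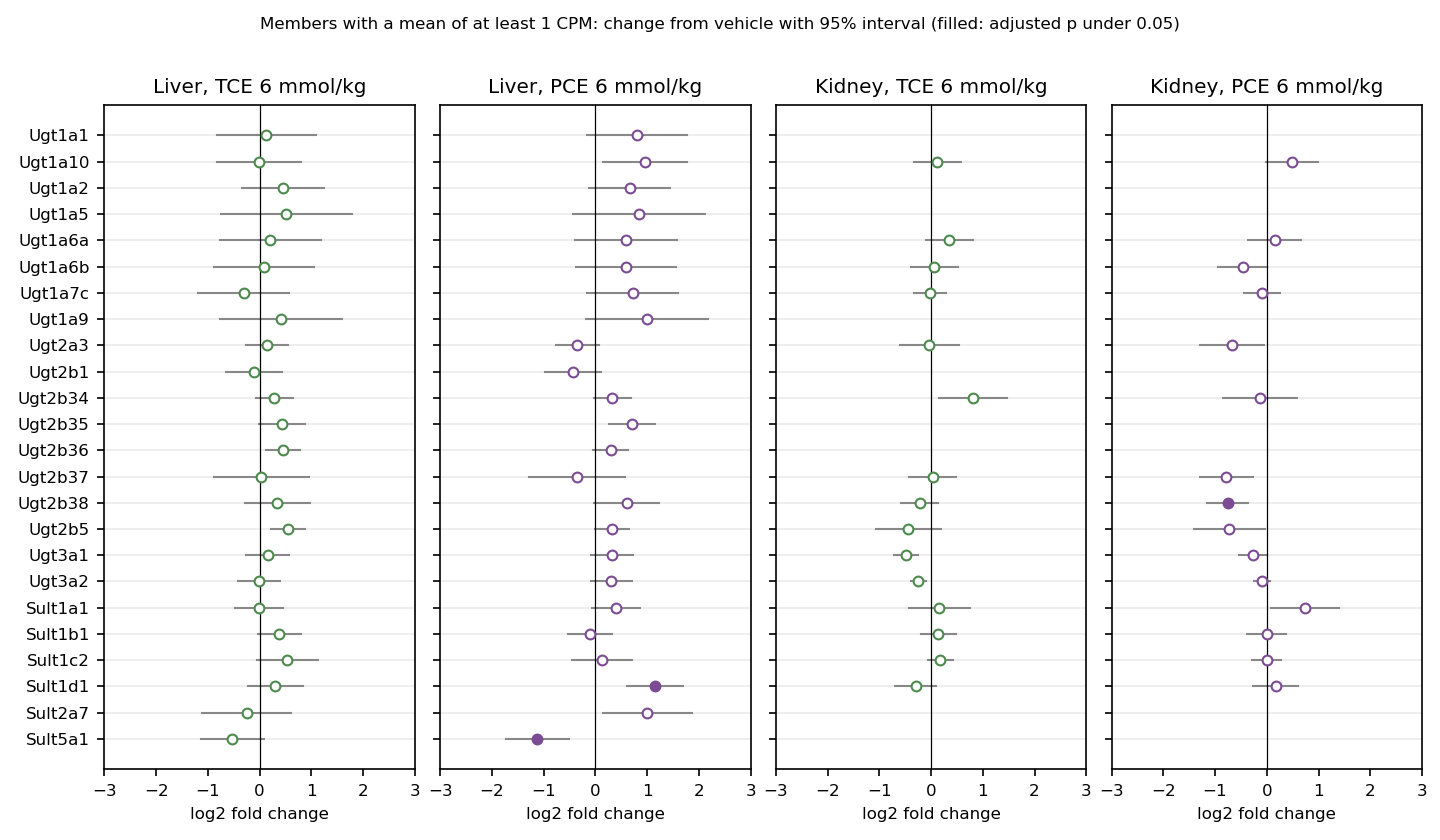
Log2 fold change from vehicle at 6 mmol/kg with its 95% interval for members with a mean of at least 1 CPM in the tissue, in liver and kidney after TCE and PCE. Filled points are called at an adjusted p under 0.05: Sult1d1 and Sult5a1 in liver and Ugt2b38 in kidney, each after PCE.

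Sult1d1 rose and Sult5a1 fell in liver after PCE, 1 member each of the 25, where 5.84% of all 13174 genes were called (2.28% higher and 3.56% lower). Sult1d1 was at 86.3, 81.7 and 114 CPM in the PCE vehicle libraries. It was at 118, 143 and 130 CPM at 0.22 mmol/kg, at 133 and 116 at 0.67, at 129, 128 and 182 at 2, and at 318, 103 and 202 at 6. Replicate 2 at 6 mmol/kg lay within the vehicle range and the other 2 libraries lay above it. The log2 fold change at 6 mmol/kg was 1.15 ± 0.26 (SE, adjusted p 0.0151), or 2.22-fold. Over the dose ranks 0 to 4 Sult1d1 rose by 0.25 ± 0.06 per rank (adjusted p 0.026), in a trend test that called 11.8% of 13029 genes (5.07% higher and 6.73% lower) and 2 of 24 members, 1 in each direction.

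Sult5a1 was at 60.4, 73.7 and 44 CPM in the PCE vehicle libraries of liver. It was at 38.1, 65.8 and 47.5 CPM at 0.22 mmol/kg, at 55.3 and 67.3 at 0.67, at 41.3, 40.1 and 41.7 at 2, and at 15.5, 32 and 32.9 at 6. The vehicle and 6 mmol/kg libraries did not overlap, and replicate 1 at 6 mmol/kg was the lowest of all. The log2 fold change was -1.12 ± 0.29 (adjusted p 0.0295), and the trend -0.25 ± 0.07 per rank (adjusted p 0.0341).

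Both calls leaned on single libraries. Sult1d1 was not called at 6 mmol/kg without replicate 1 of the dose group (log2 0.71, adjusted p 0.154), without vehicle replicate 1 (1.10, adjusted p 0.0537) or 2 (1.03, adjusted p 0.0718), or with the PCE libraries alone (1.15, adjusted p 0.0531). Sult5a1 was not called without replicate 1 (-0.84, adjusted p 0.178) or 3 (-1.28, adjusted p 0.051) of the dose group or vehicle replicate 1 (-1.09, adjusted p 0.0689) or 2 (-0.96, adjusted p 0.118). Replicate 1 at 6 mmol/kg PCE also stood apart in Cyp4a14, a PPARα target that oxidises fatty acids (11001 CPM against 1650 and 3202), and in Cyp2e1, which oxidises both solvents (16561 against 8330 and 11862). The trend of Sult1d1 was not called without vehicle replicate 1 or 2 (0.23 and 0.22 per rank, adjusted p 0.0501 and 0.0807) or replicate 1 or 3 at 6 mmol/kg (0.16 and 0.24, adjusted p 0.101 and 0.0735). That of Sult5a1 was not called without vehicle replicate 2 (-0.24, adjusted p 0.0969), replicate 2 at 0.22 mmol/kg (-0.24, adjusted p 0.0555) or any of replicates 1 to 3 at 6 mmol/kg (-0.18, -0.25 and -0.25, adjusted p 0.0704, 0.0608 and 0.0862).

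Markers of liver zones and cell types were called in the same comparison of 6 mmol/kg PCE with vehicle, where 5.84% of all genes were called. Of 8 pericentral hepatocyte markers Oat (-0.75) and Cyp1a2 (-0.85) were lower, and of 7 periportal markers Hsd17b13 (0.74) and Ctsc (1.10) were higher. The summed level of the pericentral list was 11715 to 19503 CPM at 6 mmol/kg and 13231 to 13987 in vehicle, and that of the periportal list 6126 to 8831 and 5560 to 7237. Ass1 (-1.13) was lower among 10 hepatocyte markers, whose sum was 188786 to 229423 CPM and 173723 to 206178. Adgre1 (1.42) was higher among 7 macrophage markers (177 to 340 CPM and 91 to 313), and Dcn (1.30) among 6 stellate cell and fibroblast markers (127 to 180 CPM and 75.3 to 128). No marker was called among 4 of cholangiocytes or 6 of endothelium by edgeR, with 0 and 1 at an unadjusted p under 0.05. The cholangiocyte sum was 14.3 to 17 CPM at 6 mmol/kg and 17.8 to 21.5 in vehicle, without overlap, and the endothelial sum 179 to 208 and 146 to 296. The summed ranges of the 5 lists with a called marker each overlapped between vehicle and 6 mmol/kg PCE, that of the stellate list only between 127 and 128 CPM, and no listed marker of these types was at 0 in all libraries of either group. The part of zone or cell type in the results for Sult1d1 and Sult5a1 was not tested.

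The base composition and length dependence of the libraries differed between the same groups. In each library log2 CPM was fitted over genes on GC content and log2 gene length together. At 6 mmol/kg PCE the GC slopes were -0.212, -0.169 and -0.334 per 10 percentage points, against 0.051, 0.227 and 0.011 in the vehicle libraries. The length slopes were 0.137, 0.169 and 0.108 per doubling against 0.009, -0.057 and 0.110. With both slopes as covariates Sult1d1 was at 0.38 (adjusted p 0.6) and Sult5a1 at -0.72 (adjusted p 0.305), so neither was called. In the PCE trend with these covariates they were at 0.06 and -0.13 per rank (adjusted p 0.825 and 0.577), also not called. Across the 29 liver libraries the level of Sult1d1 followed the GC slope (Pearson r -0.80, permutation p 1e-05, the smallest these permutations can give, adjusted p 6.25e-05, Spearman rho -0.79 with permutation p 1e-05). The value was -0.76 without the 2 libraries farthest from the median slope and -0.47 for deviations from group means. Libraries were shuffled across groups, so the permutation p also holds differences between groups. The value for deviations was not tested. Sult5a1 followed the length slope (r -0.68, permutation p 3e-05, adjusted p 0.000125, rho -0.73 with permutation p 3e-05, -0.65 without 2 libraries, -0.73 for deviations). Whether these slopes are technical or follow from treatment was not tested.

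**Figure D4:**
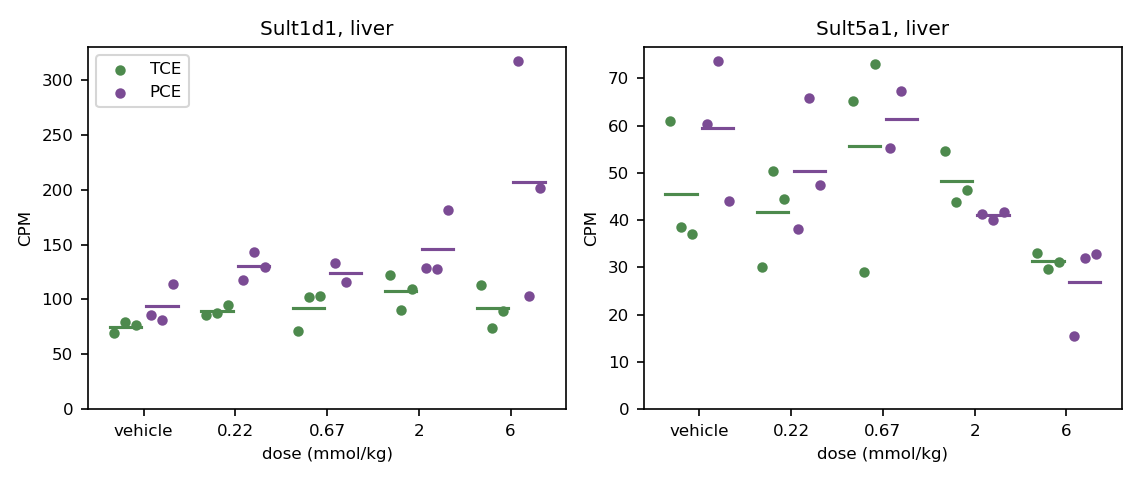
Sult1d1 (left) and Sult5a1 (right) in liver, in CPM by dose in mmol/kg, 1 point per library and a bar at each group mean, TCE in green and PCE in purple. After PCE at 6 mmol/kg Sult1d1 spans 103 to 318 CPM around a vehicle range of 81.7 to 114, and Sult5a1 lies at 15.5 to 32.9 CPM, below its vehicle range of 44 to 73.7.

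Most other liver members lay above vehicle at 6 mmol/kg PCE without passing the test. Of the 25 members, 20 had a fold change above 0, with a median log2 of 0.59, where 49.8% of all genes were above 0 with a median of -0.00155. An unadjusted p under 0.05 was found for 6 of the 25 members and for 3353 of all 13174 genes, a like share. All 8 Ugt1a members were above vehicle, by 0.59 to 1.00 (median 0.76), with a smallest adjusted p of 0.131. Ugt1a1 was at 232, 83.7 and 298 CPM in the PCE vehicle libraries and at 382, 347 and 345 at 6 mmol/kg. The dose libraries of Ugt1a1 lay above all 3 vehicle libraries, yet Ugt1a1 varied as widely between TCE vehicle libraries (128, 323 and 232).

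The 8 Ugt1a members tracked the length slope of the library. Their correlations with it ran from r 0.60 to 0.87 over 29 libraries, each past the threshold after adjustment over 50 relations (25 members and 2 slopes). For Ugt1a1 r was 0.85 (permutation p 1e-05, the smallest these permutations can give, adjusted p 6.25e-05), rho 0.87 (permutation p 1e-05), r without 2 libraries 0.85 and r of deviations from group means 0.84. The Ugt1a1 vehicle libraries at 128 and 83.7 CPM had length slopes of -0.084 and -0.057, and the other 4 had slopes of 0.009 to 0.228. In all, 13 of 25 members were positively and 3 negatively related to the length slope after adjustment, and 2 positively and 16 negatively to the GC slope. The slopes were fitted over all genes, and the share of all genes related to them was not computed. These counts therefore do not set the members apart from other genes. The cause of these relations was not tested.

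The most abundant liver members did not pass the test after PCE. Ugt2b5 was at 1696, 1398 and 1486 CPM in vehicle and 1708, 1843 and 2106 at 6 mmol/kg (log2 0.32, adjusted p 0.207). Ugt2b36 differed by 0.30 (adjusted p 0.247), Ugt2b1 by -0.43 (adjusted p 0.304) and Sult1a1 by 0.40 (adjusted p 0.272). Ugt2b5 and Ugt2b36 were called when the 2 vehicle groups were pooled (0.50, adjusted p 0.0306, and 0.48, adjusted p 0.0386), and changed sign with the slopes as covariates (-0.03 and -0.05). Ugt2b35, nearest to the threshold, was at 337, 259 and 329 CPM in vehicle and 444, 462 and 591 at 6 mmol/kg, without overlap (log2 0.71, adjusted p 0.0517). DESeq2 called it (0.71, adjusted p 0.0189). Sult1e1 reached 1.45 CPM in replicate 1 at 6 mmol/kg, and 0.101 and 0.175 in the others.

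After TCE none of the 25 liver members was called at 6 mmol/kg, where edgeR called 1.31% of all genes, 3 members had an unadjusted p under 0.05 and DESeq2 called 1. The median log2 of the members was 0.15, and -0.0419 for all genes. Ugt2b5 came nearest, at 1177, 1390 and 957 CPM in the TCE vehicle libraries and at 1916, 1507 and 1735 at 6 mmol/kg, without overlap (log2 0.55 ± 0.16, adjusted p 0.101). It was called by DESeq2 (0.56, adjusted p 0.0207) and without vehicle replicate 2 (0.75, adjusted p 0.0195). At 0.22 mmol/kg Ugt2b5 was at 1764, 1627 and 1794 CPM (0.61, adjusted p 0.346), and it was called there by DESeq2 (0.62, adjusted p 0.0389) and without that replicate (0.79, adjusted p 0.0286). The PCE vehicle libraries of Ugt2b5 (1696, 1398 and 1486 CPM) lay above those of TCE (log2 difference 0.38, adjusted p 0.415). Ugt2b36 differed by 0.45 after 6 mmol/kg TCE (adjusted p 0.214), Ugt2b1 by -0.11 (adjusted p 0.954), Sult1d1 by 0.31 (adjusted p 0.751), Sult5a1 by -0.52 (adjusted p 0.53) and Sult1a1 by -0.01 (adjusted p 0.995). The TCE dose trend called 0.851% of all genes and no member, with 1 at an unadjusted p under 0.05 and none by DESeq2. Ugt2b36 had the smallest p in it (0.09 per rank, adjusted p 0.301).

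At the 3 lower doses edgeR called no member in either tissue in 12 comparisons, with 0 to 8 members at an unadjusted p under 0.05 and 0 or 1 called by DESeq2. Those comparisons called 0.182% of all genes in liver at 2 mmol/kg PCE, 0.00759% in liver at 2 and 0.67 mmol/kg TCE and at 0.67 and 0.22 mmol/kg PCE, 0.0141% in kidney at 2 mmol/kg PCE, 0.00703% in kidney at 0.67 mmol/kg TCE and 0% in the other 5. The 8 members at an unadjusted p under 0.05 were in liver at 0.22 mmol/kg TCE, where 773 of 13174 genes had such a p. There 20 of 25 members were above 0 (median log2 0.45), and 46.7% of all genes (median -0.0248). At the other lower doses in liver 19 members were above 0 at 2 PCE, 12 and 10 at 2 and 0.67 TCE, and 9 each at 0.67 and 0.22 PCE. Liver libraries of the 3 lower doses held at most 65112568 counts and those of vehicle at least 88048143. Depth and dose therefore cannot be told apart in these liver comparisons, and the liver dose trends span both depths. The members with the smallest p in liver were Ugt2b36 at 2 mmol/kg TCE (0.47, adjusted p 0.36), Sult1c2 at 0.67 TCE (0.69, adjusted p 0.593), Sult1d1 at 2 PCE (0.65, adjusted p 0.317) and 0.22 PCE (0.47, adjusted p 0.999), and Ugt2a3 at 0.67 PCE (-0.35, adjusted p 0.811). In kidney Ugt2b34 came nearest, at 7.17, 13.4 and 15.3 CPM in TCE vehicle and 13.7, 29.4 and 30.5 at 0.67 mmol/kg (1.04, adjusted p 0.224). It was called without replicate 1 of that dose (1.32, adjusted p 0.0347). Replicate 3 at that dose had 667 CPM of Cyp11a1, a steroid-making enzyme of the adrenal, against at most 1.59 in the other kidney libraries. The other kidney members with the smallest p were Ugt3a1 at 2 TCE (-0.27, adjusted p 1), Sult1b1 at 0.22 TCE (0.45, adjusted p 0.955), Ugt2b38 at 2 PCE (-0.50, adjusted p 0.608), Ugt1a2 at 0.67 PCE (-1.89, adjusted p 0.601) and Ugt2b5 at 0.22 PCE (-0.85, adjusted p 0.783).

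Ugt2b38 fell in kidney after PCE, the 1 member of 21 called at 6 mmol/kg, where 3.83% of 14216 genes were called, 2.06% lower. It was at 1474 and 1434 CPM in the 2 PCE vehicle libraries. The levels were 1280, 1091 and 1239 CPM at 0.22 mmol/kg, 1054, 1161 and 1345 at 0.67, 1181, 828 and 1059 at 2, and 712, 970 and 872 at 6. None of the 12 dosed libraries reached the PCE vehicle libraries. The log2 fold change at 6 mmol/kg was -0.76 ± 0.19 (adjusted p 0.0231), with vehicle at 1.69 times the dosed level. The trend was -0.17 ± 0.03 per rank (adjusted p 0.0087), against 3.37% of 13818 genes called (1.94% higher and 1.43% lower), and it was called in all 20 alternatives tried, with -0.19 to -0.15 per rank and a largest adjusted p of 0.0268.

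The call at 6 mmol/kg was lost without vehicle replicate 1 (-0.74, adjusted p 0.175) or 2 (-0.78, adjusted p 0.151), each of which left 1 vehicle library, whose spread was assumed from the other groups, and without replicate 1 at 6 mmol/kg (-0.65, adjusted p 0.134). It was kept with the slopes as covariates (-0.73, adjusted p 0.0237) and with pooled vehicle groups (-0.65, adjusted p 0.00893). The TCE vehicle libraries of Ugt2b38 were at 1301, 1456 and 1101 CPM, and those at 6 mmol/kg TCE at 968, 1086 and 1247 (-0.22, adjusted p 0.744), which overlapped.

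Several genes of the straight end of the proximal tubule (the S3 segment) were also lower after 6 mmol/kg PCE. The summed level of 6 S3 markers was 1649 and 2074 CPM in PCE vehicle libraries and 936, 1074 and 935 at 6 mmol/kg. Of the 6, 4 were called lower, where 2.06% of all genes were. Slc7a13, an amino acid carrier of S3, was at 824 and 918 CPM in vehicle and 289, 434 and 394 at 6 mmol/kg (-1.21 ± 0.20, adjusted p 0.00117). The sum of 7 markers of the earlier proximal segments was 14619 and 14664 CPM in vehicle and 10603 to 13359 at the top dose. After 6 mmol/kg TCE the S3 sum was 1317, 1218 and 1323 CPM against 2675, 1951 and 2152, and Slc7a13 was lower (-0.96, adjusted p 0.0236), while Ugt2b38 was not called. The part of segment-specific RNA in the result was not tested.

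**Figure D5:**
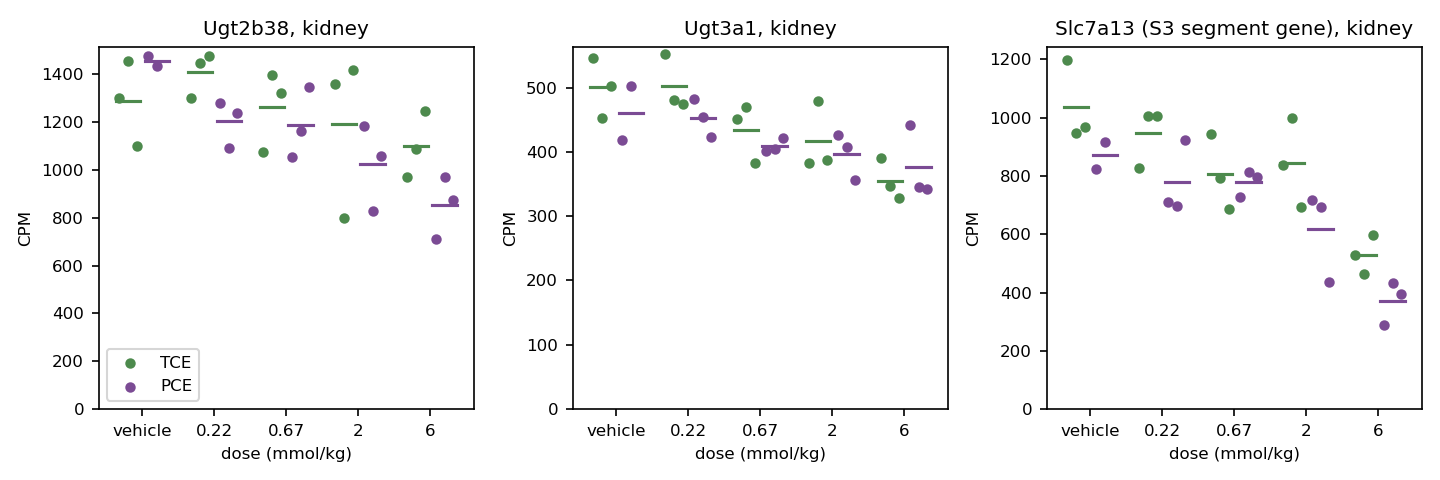
Ugt2b38, Ugt3a1 and the S3 segment gene Slc7a13 in kidney, in CPM by dose in mmol/kg, 1 point per library and a bar at each group mean, TCE in green and PCE in purple. Ugt2b38 at 6 mmol/kg PCE lies at 712 to 970 CPM, below the 2 PCE vehicle libraries at 1434 and 1474, and Slc7a13 is lower at 6 mmol/kg after both chemicals.

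Other kidney members after PCE gave values without a call at 6 mmol/kg. All 4 tested Ugt2b members were below vehicle, at -0.78 to -0.12, and Ugt2b37 was at 86.4 and 84.8 CPM in vehicle and 45.6, 45.1 and 57.2 at 6 mmol/kg, without overlap (-0.78, adjusted p 0.0783). DESeq2 called it (-0.78, adjusted p 0.0208). Ugt3a1 differed by -0.27 (adjusted p 0.277), Ugt3a2 by -0.09 (adjusted p 0.606) and Ugt1a7c by -0.09 (adjusted p 0.849, 213 to 244 CPM beside 239 and 247 in vehicle). Over the 21 members the median log2 was -0.09, with 8 above 0 and 8 at an unadjusted p under 0.05. Over all 14216 genes the median was 0.0306, with 54.7% above 0 and 2330 at an unadjusted p under 0.05. Sult1d1 was at 374 and 477 CPM in vehicle and 702, 364 and 352 at 6 mmol/kg (0.17, adjusted p 0.751), and Sult1a1 at 6.88 and 6.43 and then 18.2, 7.56 and 7.17 (0.73, adjusted p 0.242). Replicate 1 was the high library for both, as it was for Cyp4a14 (1682 CPM against 248 and 202). Ugt1a2 was called in the PCE trend (edgeR, 0.76 ± 0.20 per rank, adjusted p 0.0477), at 0.212 and 0.22 CPM in vehicle and 1.71, 0.407 and 0.582 at 6 mmol/kg. It lies outside the naming rule for its level, and 13 of 18 alternatives ended the call, among them the one without replicate 1 at 6 mmol/kg (0.49, adjusted p 0.198).

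After TCE no kidney member was called at 6 mmol/kg by edgeR (0.176% of all genes called), with 3 at an unadjusted p under 0.05, while DESeq2 called Ugt3a1 and Ugt3a2. Ugt3a1 was at 546, 453 and 502 CPM in vehicle and 390, 347 and 329 at 6 mmol/kg, without overlap (-0.49 ± 0.11, adjusted p 0.0815, and 0.00556 by DESeq2). Ugt3a2 was at 1739, 1670 and 1636 CPM and then 1433, 1421 and 1374, also without overlap (-0.25, adjusted p 0.144, and 0.0148 by DESeq2). Over dose ranks Ugt3a1 was at -0.12 per rank (adjusted p 0.08), in a trend test that called 0% of 13702 genes by edgeR, with 1244 genes and 2 members at an unadjusted p under 0.05. DESeq2 called Ugt3a1 (adjusted p 0.000584) and Ugt3a2 (-0.06, adjusted p 0.00816) in that trend, and, for Ugt3a1, so did edgeR without replicate 2 at 2 mmol/kg (-0.14, adjusted p 0.0213). Sult1d1 differed by -0.30 (adjusted p 0.641), Sult1c2 by 0.18 (adjusted p 0.675) and Sult1a1 by 0.16 (adjusted p 0.907) at 6 mmol/kg TCE.

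The responses to the 2 chemicals were compared as differences of fold changes at the 4 matched molar doses in each tissue. No member was called in the 8 comparisons by edgeR or DESeq2, with 0 to 5 members at an unadjusted p under 0.05, and edgeR called 0.0228% of all genes in liver at 0.67 mmol/kg, 0.0211% in kidney at 6 mmol/kg and 0% in the other 6. In liver at 6 mmol/kg the PCE response of Sult1d1 exceeded that to TCE by 0.84 on the log2 scale (95% interval 0.091 to 1.59, adjusted p 0.537). Sult5a1 differed by -0.59 (-1.45 to 0.26) and the weak Sult1e1 by 4.41 (1.73 to 7.10, adjusted p 0.331). In kidney at 6 mmol/kg Ugt2b38 differed by -0.54 (-1.07 to -0.0070, adjusted p 0.649) and Ugt2b37 by -0.81 (-1.50 to -0.13, adjusted p 0.544). These p-values miss the threshold and the intervals reach differences of over 1 on the log2 scale, so they do not show that the chemicals act alike on these genes. At the lower doses the members with the smallest p were Ugt1a2 at 2 and 0.22 mmol/kg in liver (1.33 and -1.70, adjusted p 0.67 and 0.944), Sult1b1 at 0.67 in liver (-0.69, adjusted p 0.721), and Ugt2b34 at 2, Ugt1a2 at 0.67 and Ugt2b5 at 0.22 in kidney (-0.81, -3.94 and -0.88, adjusted p 1, 0.164 and 0.999). Between the 2 vehicle groups of a tissue edgeR called no member, with 2 or 3 at an unadjusted p under 0.05, none by DESeq2 and 0% of all genes called. Ugt2b36 in liver (0.40, adjusted p 0.398) and Ugt1a6b in kidney (0.62, adjusted p 0.511) had the smallest p.

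The liver response was compared with the kidney response at 6 mmol/kg in 1 fit of both tissues, without a term for the library numbers that the 2 tissues share, which called 0.709% of all genes for PCE and 0.328% for TCE and no member, with 5 and 3 at an unadjusted p under 0.05. Ugt2b38 was at 133, 72.2 and 94.5 CPM in liver PCE vehicle libraries and 105, 181 and 166 at 6 mmol/kg, and the liver response exceeded the kidney response by 1.36 (95% interval 0.62 to 2.11, adjusted p 0.0687, and 1.34, adjusted p 0.149, with the shared library number as a block). DESeq2 called it (1.37, adjusted p 0.0197), as did edgeR without liver PCE vehicle replicate 1 (1.63, adjusted p 0.0288) or replicate 1 of liver at 6 mmol/kg (1.57, adjusted p 0.0427). Sult1d1 differed by 0.99 (adjusted p 0.175), and was called without replicate 1 of kidney at 6 mmol/kg (1.39, adjusted p 0.0439) or replicate 2 of liver at 6 mmol/kg (1.32, adjusted p 0.0149). For TCE Ugt2b36 had the smallest p (3.28, adjusted p 0.21), on kidney levels near 0.

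Genes that supply, export and regulate the pathway were counted over 8 lists. Of 9 genes for UDP-glucuronic acid supply, Ugdh, which makes UDP-glucuronic acid, rose in liver at 6 mmol/kg PCE (0.56 ± 0.15, adjusted p 0.0295). Slc35b1, an endoplasmic reticulum carrier known to exchange ATP, fell in liver (-0.84 ± 0.23, adjusted p 0.0389) and in kidney (-0.73 ± 0.12, adjusted p 0.00157) at that dose. There 5.84% of all genes were called in liver and 3.83% in kidney. No gene for sulfate and PAPS supply was called at 6 mmol/kg or in a trend in either tissue by edgeR (11 tested in liver and 13 in kidney), with 0 to 3 at an unadjusted p under 0.05. Of 10 deconjugation genes none was called at 6 mmol/kg, while Gusb, the lysosomal β-glucuronidase, fell in the kidney PCE trend (-0.17 ± 0.04 per rank, adjusted p 0.0365) and Ids rose and Sgsh fell in that of liver (0.13 and -0.12, adjusted p 0.0368 and 0.039). Those PCE trends called 3.37% of all genes in kidney and 11.8% in liver.

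At 6 mmol/kg PCE 2 of 14 carriers tested in liver and 4 of 17 in kidney were called (5.84% and 3.83% of all genes). At 6 mmol/kg TCE 1 of 17 was called in kidney (0.176% of all genes) and none of 14 in liver by edgeR, with 3 at an unadjusted p under 0.05. Slc22a7, an organic anion carrier, fell in liver at 6 mmol/kg PCE (-1.60 ± 0.37, adjusted p 0.0162) and in kidney at 6 mmol/kg PCE (-1.12 ± 0.25, adjusted p 0.0119) and TCE (-1.16 ± 0.23, adjusted p 0.036). Abcc6, an efflux pump, also fell in liver after PCE (-0.77, adjusted p 0.0233). In kidney after PCE, the efflux pumps Abcb1a (1.56, adjusted p 0.00501) and Abcc5 (0.34, adjusted p 0.0267) rose and Slco1a1, an organic anion uptake carrier, fell (-0.94, adjusted p 0.0259). In the PCE trends Abcg2 rose and Abcc6 fell in liver (0.14 and -0.20 per rank, adjusted p 0.03 and 0.0246), and Abcb1a and Abcb1b rose and Slco1a1 and Slc22a7 fell in kidney.

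Among 17 receptors and factors known to regulate these families, none was called in kidney by edgeR for either solvent, at 6 mmol/kg or in the dose trend, with 1 to 3 at an unadjusted p under 0.05. None was called in liver after TCE, with 1 at an unadjusted p under 0.05. Of 25 indicator genes of these receptors in liver, 6 rose at 6 mmol/kg TCE, and 9 rose and 1 fell at 6 mmol/kg PCE (1.31% and 5.84% of all genes called). The PPARα target Cyp4a14 was higher by 7.84 ± 1.34 after TCE and 9.26 ± 1.42 after PCE (adjusted p 0.00381 and 0.000952), on vehicle levels of 1.33 to 16.7 CPM. Named outside the rule, with values in view, the NRF2 targets Nqo1 (1.20, adjusted p 0.0163) and Srxn1 (0.80, adjusted p 0.00395) and the PXR-linked Cyp3a13 (0.84, adjusted p 0.0278) rose after PCE, while Cyp1a2, an AHR target, fell (-0.85, adjusted p 0.0447). In kidney 7 of 21 rose after 6 mmol/kg PCE, where 3.83% of all genes were called. Cyp4a14 rose most (6.63, adjusted p 0.00124) and Acot1, also a PPARα target, had the smallest adjusted p (2.38, adjusted p 8.91e-05). In kidney none was called after 6 mmol/kg TCE by edgeR (0.176% of all genes called), with 8 at an unadjusted p under 0.05.

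Of 13 other conjugating enzymes in liver, Nnmt, a nicotinamide methyltransferase, fell after 6 mmol/kg TCE (-2.21 ± 0.45, adjusted p 0.0156). After 6 mmol/kg PCE Nat8 (-1.06, adjusted p 0.00965), which acetylates cysteine conjugates, and Gamt (-0.94, adjusted p 0.0355), which makes creatine, fell, and As3mt (0.91, adjusted p 0.0429), the arsenic methyltransferase, rose. Among all liver genes 1.31% were called at that dose of TCE and 5.84% at that of PCE. None of the 13 was called in kidney by edgeR, with 2 to 4 at an unadjusted p under 0.05. Of Ugt8a and Ugcg, glycosyltransferases that use ceramide, 1 was tested in liver and 2 in kidney, and edgeR called neither at 6 mmol/kg or in a dose trend, with 0 or 1 at an unadjusted p under 0.05.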

How the data were processed

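Total RNA of liver and kidney was sequenced (TruSeq Total RNA, HiSeq-2000, per the labels' protocols). Per the submitters' processing notes, CASAVA 1.8.2, TopHat2 2.0.10, HTSeq and the mouse build mm10 were used, without stated roles. The 2 deposited tables, 1 per tissue, hold raw counts per RefSeq transcript, per the file headers. The deposited columns for 0.22 and 0.67 mmol/kg carry a decimal dose line and were read under the unit of expected counts, but each value in them is whole and rounding changed none. The ambiguous and no_feature lines, 19.7 to 22.5% and 14.3 to 27.5% of a library's size, stayed out of totals and tests. Annotation version, strand setting and counting mode are not given in the sources used here. Total counts were 30932385 to 125880542 per liver library and 23247565 to 32420329 per kidney library, and these limit the precision of low genes.

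Transcripts were summed per symbol. Each tissue was fitted once with edgeR 4.0.16 in R 4.3.3 (quasi-likelihood test, TMM, filterByExpr, 10 groups), dose trends used ranks 0 to 4 within a chemical, and tissue comparisons used 1 fit of all 58 libraries. P-values were adjusted by Benjamini-Hochberg over all genes in 33 comparisons, and called means an adjusted p under 0.05. Correlations used log2(CPM + 0.1) and 100000 permutations, two-sided. The permutations shuffled libraries across all groups of liver, so their p-values do not separate differences between groups from relations within them. On simulated data for PCE at 6 mmol/kg, 48% of 2-fold and 86% of 4-fold changes were recovered in liver (13038 genes) and 56% and 92% in kidney (14074 genes). In them 100 genes were changed per fold, every other gene kept the same mean in all libraries, and no slope differences were simulated. Recovery in the real data can therefore differ from these rates.

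Named with full values were called members with a mean of at least 1 CPM (at most 5 per direction), the member with the smallest p where none was called, and the 3 UGT and 3 SULT members highest in each tissue. The members and the pathway and marker lists were chosen with earlier results of these data known. Alternatives were DESeq2 1.42.0 (as a test and for size factors), no count filter, Ugt1a summed, a replicate block, length and GC slopes as covariates, pooled vehicle groups, fewer groups in the fit, and each replicate left out. One result of the list of receptors and factors is not reported here.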

Additional observations from a re-analysis of the deposited data

How the results depend on the processing

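Counts of called members changed as follows. DESeq2 called 1 member in liver at 6 and 1 at 0.22 mmol/kg TCE, 2 in kidney at 6 mmol/kg TCE and 2 in the kidney TCE trend, and 1 for the liver minus kidney response to PCE, where edgeR called 0. It called 5 in the liver PCE trend (edgeR 2), 3 in liver at 6 mmol/kg PCE (edgeR 2), 2 in kidney at 6 mmol/kg PCE (edgeR 1) and 3 in the kidney PCE trend (edgeR 2). In the kidney PCE trend DESeq2 called Ugt2b37 and Ugt3a1 beside Ugt2b38, and gave no adjusted p for Ugt1a2. With length and GC slopes as covariates, liver PCE gave 0 at 6 mmol/kg and 1 in the trend. That 1 was Sult1b1 (-0.24 per rank, adjusted p 0.0287), and the trend calls of Sult1d1 and Sult5a1 were lost. With pooled vehicle groups, liver and kidney gave 5 each at 6 mmol/kg PCE, and the PCE libraries alone gave 1 in liver. The kidney PCE trend gave 1 without a count filter, with Ugt1a summed and with a replicate block. Within a tissue replicate numbers did not pair samples: across 126 pairs of same-numbered libraries of different groups, deviations correlated by -0.719 to 0.582 in liver and -0.322 to 0.403 in kidney. Liver and kidney libraries also share library numbers, and the labels do not say whether a number is 1 mouse. Over 28 such pairs deviations correlated by -0.217 to 0.311 (median 0.059), with 11 over 0.1. Over 757 pairs of liver and kidney libraries of different groups they correlated by -0.428 to 0.372 (median 0.003), with 170 over 0.1. With the shared library number as a replicate block 26 members differed between vehicle tissues, as Ugt1a10 was lost (0.62, adjusted p 0.106), and 0 in the response to either chemical.

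With 1 replicate left out the counts ran from 0 to 1 in liver at 6 and at 0.22 mmol/kg TCE, in kidney at 0.67 mmol/kg TCE, in the kidney TCE trend and for the tissue difference in response to PCE. They ran from 0 to 3 in liver at 6 mmol/kg PCE (3 without replicate 2 of that dose), 0 to 7 in the liver PCE trend (7 without vehicle replicate 3), 0 to 2 in kidney at 6 mmol/kg PCE (2 without replicate 2 of that dose), 1 to 3 in the kidney PCE trend (3 without replicate 1 at 2 mmol/kg) and 26 to 27 between tissues.

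Values that changed sign were not called in the report. With the slopes as covariates these were, in liver, Ugt2b5 and Ugt2b36 at 6 mmol/kg PCE (-0.03 and -0.05) and in the PCE trend (-0.03 and -0.06), Sult1a1 in the PCE (-0.0029) and TCE trends (-0.07), and Sult1d1 at 6 mmol/kg TCE (-0.17) and in the TCE trend (-0.05). In kidney it was Sult1c2 at 6 mmol/kg PCE (0.01). With a replicate block they were Sult1a1 in liver at 6 mmol/kg TCE (0.01) and Sult1d1 in the kidney PCE trend (-0.0021). With pooled vehicle groups they were Sult1a1 at 6 mmol/kg TCE in liver (0.05) and Sult1c2 at 6 mmol/kg PCE in kidney (0.12). With 1 replicate left out, liver Ugt2b1 ran from -0.31 to 0.14 and Sult1a1 from -0.20 to 0.33 at 6 mmol/kg TCE, and Sult1a1 from -0.02 to 0.07 in the TCE trend. In kidney Sult1d1 ran from -0.24 to 0.35 and Sult1c2 from -0.07 to 0.08 at 6 mmol/kg PCE, and Sult1d1 from -0.08 to 0.03 and Sult1a1 from -0.01 to 0.15 in the PCE trend. The cause of these shifts was not tested, and 2 or 3 libraries in a group and low counts limit what can be resolved.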
